A study of Mus musculus with 12 samples.

Results

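The 9 genes described here carry the dopamine and cAMP signal of striatal projection neurons, the main cell type of the striatum. They were chosen by name from 23282 gene rows, and all 9 were listed: the receptors Drd1, Drd2, Adora2a and Gpr6, the G protein subunits Gnal and Gng7, the adenylyl cyclase Adcy5, the phosphoprotein Ppp1r1b and the small G protein Rasd2. 7 of the 9 had enough reads to be compared. Drd2 had 9 reads and Gpr6 had 3 reads over all 12 libraries, so neither could be read here.

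The samples were striatum and cortex of R6/2 mice, a model of Huntington's disease whose transgene holds exon 1 of the human huntingtin gene HTT with an expanded CAG tract, and of wild-type (WT) littermates. R6/2 tissue was taken at 8 weeks, before symptom onset (pre-symptomatic), and at 13 weeks, after it (post-symptomatic), and each of these 4 groups of R6/2 tissue had 2 libraries. WT tissue of the same ages and regions had 1 library a group, so the 12 libraries were 8 from R6/2 and 4 from WT. RNA was measured by 3′ end sequencing of total RNA, which counts reads near the end of each transcript.

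In projection neurons of the direct pathway dopamine acts through D1 receptors, which are coupled to a stimulatory G protein and raise cAMP. Neurons of the indirect pathway carry D2 receptors, which lower cAMP, together with adenosine receptors of the Adora2a gene, which raise it. In both, the G protein alpha subunit Gαolf (Gnal) acts with the gamma subunit Gγ7 (Gng7) to drive adenylyl cyclase 5 (Adcy5), and cAMP-dependent protein kinase (PKA) then phosphorylates DARPP-32 (Ppp1r1b), which thereby becomes an inhibitor of protein phosphatase 1.

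The counts summed to between 8814386 and 12091201 reads a library. The second pre-symptomatic R6/2 striatal library stood apart from the first: its summed level of 12 striatal projection neuron markers, none of them a member, was 2196 against 6759 CPM (reads per 1000000, scaled between libraries), with 12 of 12 markers lower. Its oligodendrocyte markers summed to 21326 CPM against 3467 CPM, with 10 of 10 higher, and its thalamic neuron markers to 1880 CPM against 130 CPM, with 5 of 5 higher. The members' striatal comparisons are therefore given with and without it. Leaving out the first replicate in its place also took the disagreement of the pair out of the estimate of spread, and those values are given as well. Xist and Y-linked reads showed that replicate 1 of every R6/2 group was male and replicate 2 female. WT was female at 13 weeks and male at 8 weeks. Sex therefore cannot be told apart from replicate number in R6/2, or from age in WT. In bulk tissue, fewer cells of a type and less RNA per cell cannot be told apart.

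**Figure D1:**
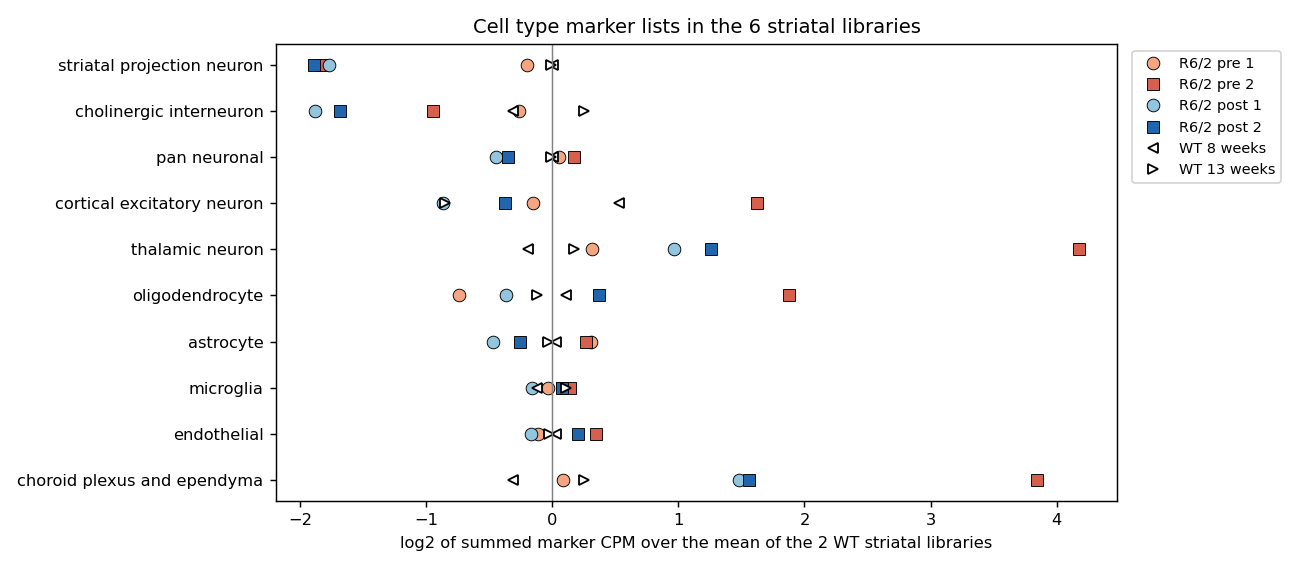
Summed CPM of each cell type marker list in the 6 striatal libraries, as log2 of its ratio to the mean of the 2 WT striatal libraries, with 1 point per library. Striatal projection neuron markers lay far below WT in both post-symptomatic R6/2 libraries and in pre-symptomatic replicate 2, and that replicate had the highest thalamic, oligodendrocyte and choroid plexus sums of the 6, while thalamic and choroid plexus sums of the post-symptomatic libraries also lay above WT.

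The sequences around the transcription starts of readable members are shown because these genes share the pattern of levels described after them. Each runs from 250 bases before to 50 bases after the first listed start, 5′ to 3′ on the strand of the gene, from RefSeq on GRCm38.p6, and capitals mark matches to the GC box GGGCGG on either strand. Entries were found for 6 of the 9 members, and those of Adora2a, Ppp1r1b and Gnal were not.
Drd1, chr13:54055609-54055908, minus strand: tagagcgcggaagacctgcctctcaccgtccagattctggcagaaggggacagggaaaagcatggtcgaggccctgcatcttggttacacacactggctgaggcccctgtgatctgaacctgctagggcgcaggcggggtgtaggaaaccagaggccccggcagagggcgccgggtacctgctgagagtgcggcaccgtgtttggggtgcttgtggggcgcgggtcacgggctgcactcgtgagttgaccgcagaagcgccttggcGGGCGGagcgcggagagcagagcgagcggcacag
Gng7, chr10:81014876-81015175, minus strand: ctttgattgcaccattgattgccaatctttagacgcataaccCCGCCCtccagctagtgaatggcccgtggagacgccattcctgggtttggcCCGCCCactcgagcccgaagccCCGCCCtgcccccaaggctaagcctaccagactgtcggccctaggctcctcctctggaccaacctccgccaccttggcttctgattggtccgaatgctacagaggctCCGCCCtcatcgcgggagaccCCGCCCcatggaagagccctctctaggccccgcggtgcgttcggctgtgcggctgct
Adcy5, chr16:35154614-35154913, plus strand: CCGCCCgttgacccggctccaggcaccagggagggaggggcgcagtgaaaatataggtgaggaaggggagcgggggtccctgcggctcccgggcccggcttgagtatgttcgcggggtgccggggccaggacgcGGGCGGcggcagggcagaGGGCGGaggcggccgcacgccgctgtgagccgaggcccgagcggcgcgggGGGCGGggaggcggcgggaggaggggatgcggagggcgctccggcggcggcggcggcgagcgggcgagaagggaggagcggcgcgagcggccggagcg
Rasd2, chr8:75213694-75213993, plus strand: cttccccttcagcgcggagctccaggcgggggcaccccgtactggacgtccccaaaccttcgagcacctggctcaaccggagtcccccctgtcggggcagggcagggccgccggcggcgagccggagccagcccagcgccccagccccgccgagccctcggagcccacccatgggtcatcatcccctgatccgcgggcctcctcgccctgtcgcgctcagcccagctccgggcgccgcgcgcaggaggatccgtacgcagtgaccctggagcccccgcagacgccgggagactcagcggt
The window of Drd1 held 1 GC box, that of Gng7 held 5, that of Adcy5 held 4 and that of Rasd2 held 0, and 35.66% of all 32851 promoter windows held at least 1. The cAMP response element TGACGTCA and the shorter TGACG, which lies within it, were searched on both strands and were found in none of these 4 windows. They occurred in 1.79% and 20.81% of all windows. The windows of Drd2 and Gpr6 are not shown, as neither gene was readable. That of Gpr6 held 1 TGACGTCA, and that of Drd2 held 0 matches to either form. Drd1 and Gng7 each had a second listed start, whose sequence is not shown. The second window of Gng7 held 1 TGACG and 0 GC boxes, and that of Drd1 held 0 TGACG and 1 GC box. A match is a description of the letters only.

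Drd1, the D1 dopamine receptor of direct-pathway neurons, lies at chr13:54051183-54055705 on the minus strand (GRCm38). In striatum it measured 252 and 200.2 CPM in the 2 post-symptomatic R6/2 libraries, 1303 and 328 CPM in the 2 pre-symptomatic ones, and 1207 and 1213 CPM in WT at 13 and 8 weeks. Both post-symptomatic libraries lay below the other 4, and their mean was 18.7% of the mean of the 2 WT libraries. In cortex Drd1 measured 40.3 and 26.1 CPM in post-symptomatic and 25.2 and 26.5 CPM in pre-symptomatic R6/2, so the stages overlapped. WT cortex measured 59.9 and 50.6 CPM at 13 and 8 weeks, above all 4 R6/2 libraries. How many genes share that cortical layout was not counted.

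Adora2a, the adenosine receptor of indirect-pathway neurons, lies at chr10:75316877-75334784 on the plus strand. Its striatal levels were 26.3 and 29.5 CPM in post-symptomatic R6/2, 249 and 100.3 CPM in pre-symptomatic R6/2, and 252 and 206 CPM in WT at 13 and 8 weeks. The post-symptomatic mean was 12.2% of the WT mean, and again both of those libraries lay below all others. In cortex the gene had between 7 and 94 reads a library, at 0.7 to 8.0 CPM, and these low values set a wide error on every cortical statement about it. Drd2, the D2 receptor of the same neurons, had between 0 and 4 reads a library, and Gpr6, an orphan receptor coupled to cAMP, had between 0 and 2. The limit that a count of 0 allows, 3 reads, equals 0.25 to 0.35 CPM a library, so for both no difference could be read from these counts. That limit holds for reads counted to the row of a gene. It does not bound transcripts whose reads were not counted there.

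Gnal, which encodes Gαolf, differed less between groups than the 2 readable receptors in these libraries. Its striatal levels were 386 and 392 CPM in post-symptomatic R6/2, 896 and 434 CPM in pre-symptomatic R6/2, and 591 and 496 CPM in WT at 13 and 8 weeks. The post-symptomatic libraries lay below the other 4, but the mean was 71.6% of the WT mean, and the 434 CPM of pre-symptomatic replicate 2 was close to them. In cortex Gnal measured 100.7 and 87.5 CPM after onset, 158 and 164 CPM before onset, and 121 and 97.1 CPM in WT. The gene lies at chr18:67088216-67226792 and overlaps Chmp1b on its own strand and Mppe1 on the other, which are both listed in the files, so reads of these genes may be counted to it.

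Gng7, which encodes the gamma subunit that partners Gαolf, lies at chr10:80948624-81014945 on the minus strand. It measured 160 and 149 CPM in post-symptomatic R6/2 striatum, 548 and 182 CPM before onset, and 513 and 539 CPM in WT at 13 and 8 weeks, a post-symptomatic mean of 29.4% of WT. In cortex its range over all 6 libraries was 22.9 to 33.6 CPM. Adcy5, the cyclase that the G protein drives, lies at chr16:35154877-35305738 on the plus strand and measured 86.2 and 70.1 CPM after onset, 352 and 144 CPM before onset, and 467 and 466 CPM in WT at 13 and 8 weeks. Its post-symptomatic mean was 16.7% of WT, and its cortical levels stayed between 27.3 and 37.8 CPM. For both genes the cortical libraries of the 4 groups overlapped or lay within a narrow range, while the striatal post-symptomatic libraries lay below all others.

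Ppp1r1b, which encodes DARPP-32, lies at chr11:98348404-98357796 on the plus strand, where 1700003D09Rik overlaps it on the other strand. It measured 352 and 426 CPM in post-symptomatic striatum, 2092 and 737 CPM before onset, and 2081 and 1796 CPM in WT, a post-symptomatic mean of 20.1% of WT. Unlike Gng7 and Adcy5, it was also low in post-symptomatic cortex, at 27.6 and 45.2 CPM against 122 and 119 CPM before onset and 145 and 118 CPM in WT. Rasd2, a small G protein enriched in striatum and also named Rhes, lies at chr8:75213944-75224113 on the plus strand and showed the same layout. It measured 70.1 and 137 CPM in post-symptomatic striatum, 510 and 224 CPM before onset, and 627 and 424 CPM in WT, a post-symptomatic mean of 19.7% of WT. In cortex it measured 19.6 and 17.8 CPM after onset, 66.0 and 77.6 CPM before onset, and 82.4 and 61.7 CPM in WT.

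**Figure D2:**
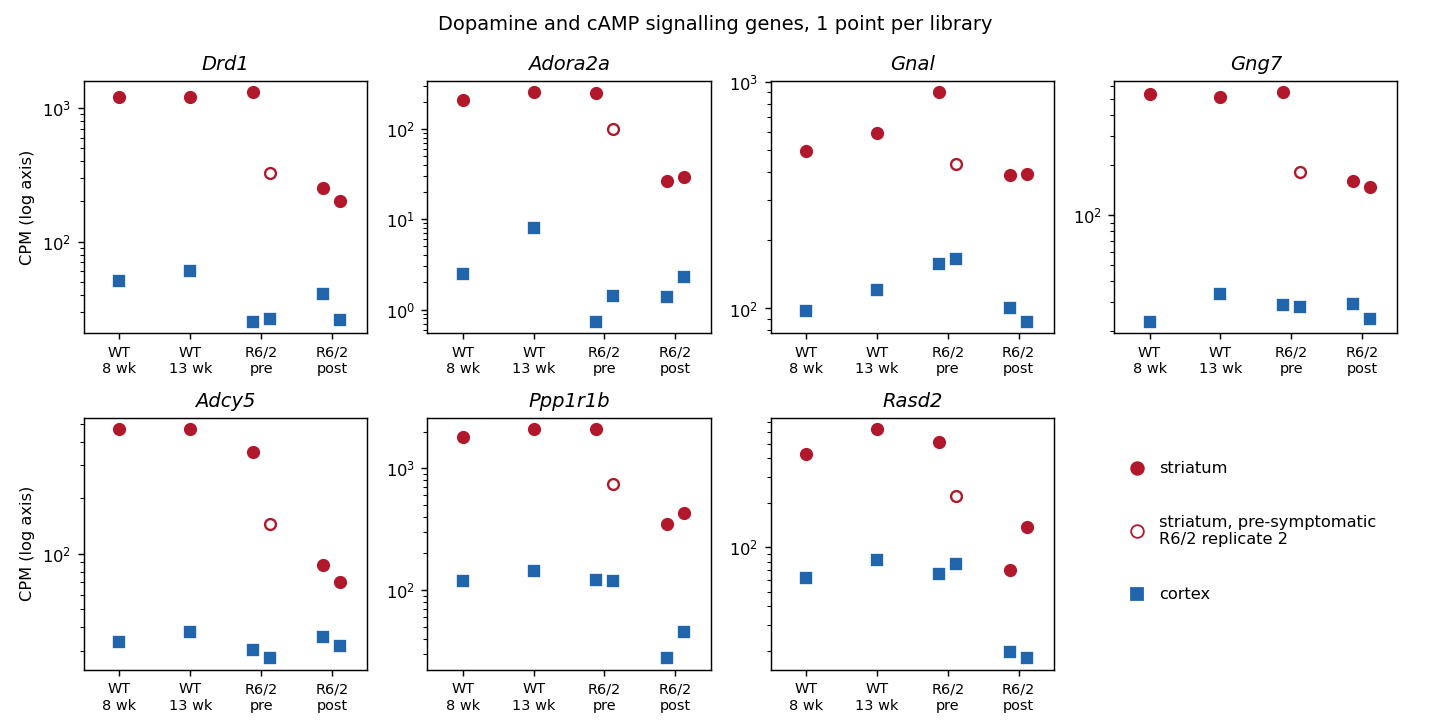
CPM (log axis) of the 7 readable members in every library, by genotype and stage, with red circles for striatum, an open circle for pre-symptomatic R6/2 replicate 2 and blue squares for cortex. All 7 members were lowest in striatum in the 2 post-symptomatic R6/2 libraries, as were 13.5% of 13392 genes. In cortex Ppp1r1b and Rasd2 lay lowest in the 2 post-symptomatic libraries, a layout whose share of all genes was not counted.

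All 7 members were higher in striatum than in cortex of WT mice. By edgeR's quasi-likelihood test over 12 libraries, the log2 difference was 5.68 ± 0.52 (SE) for Adora2a, 4.46 ± 0.66 for Drd1, 4.24 ± 0.50 for Gng7, 3.89 ± 0.51 for Ppp1r1b, 3.72 ± 0.41 for Adcy5, 2.85 ± 0.45 for Rasd2 and 2.32 ± 0.30 for Gnal, with 7 of 7 below an adjusted p of 0.05 against 3.05% of all genes higher. Before onset 7 of 7 were again higher in R6/2 striatum than in R6/2 cortex, against 1.45% of genes, and also without pre-symptomatic striatal replicate 2 (7 of 7 against 5.78%) or replicate 1 (7 of 7 against 5.59%). After onset 5 of 7 were higher, against 0.507% of genes, and Drd1 (log2 difference 2.83, adjusted p = 0.0898 by edgeR) and Adcy5 (1.28, adjusted p = 0.164) did not pass. Without pre-symptomatic striatal replicate 2, all 7 passed after onset, against 3.65% of genes, with adjusted p of 1.1e-06 for Drd1 and 0.000114 for Adcy5, and without replicate 1 all 7 passed against 3.89%. Leaving out either replicate of post-symptomatic striatum or cortex left 0 of 7 called after onset, and either replicate of pre-symptomatic cortex left 2 after onset and 1 before it.

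Across symptom onset in R6/2 striatum, all 7 levels were lower after onset, but the 2 pre-symptomatic libraries differed by 2.07-fold for Gnal to 3.98-fold for Drd1. With all libraries 0 of 7 members passed by edgeR against 0.160% of genes in either direction. By edgeR 7 of 7 had an unadjusted p under 0.05, as did 1872 of all 14392 genes. DESeq2 called 5 of 7, and 447 over all genes. The log2 changes were -2.60 ± 0.43 (SE) for Adora2a, -1.82 ± 0.46 for Ppp1r1b, -1.81 ± 0.57 for Drd1, -1.78 ± 0.43 for Rasd2, -1.62 ± 0.36 for Adcy5, -1.20 ± 0.43 for Gng7 and -0.73 ± 0.28 for Gnal, with adjusted p from 0.0753 for Adora2a to 0.331 for Gnal. Without pre-symptomatic replicate 2, 7 of 7 fell, against 5.32% of genes lower, and the log2 changes grew to -3.15 for Adora2a, -2.52 for Drd1, -2.42 for Ppp1r1b, -2.29 for Rasd2, -2.16 for Adcy5, -1.82 for Gng7 and -1.20 for Gnal. Without replicate 1, 3 of 7 fell, Adora2a (-1.83), Ppp1r1b (-0.90) and Adcy5 (-0.86), against 5.28% of genes. The order of the changes for Adora2a and Gnal, at either end, was the same in these 3 fits, but their size was not.

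Both post-symptomatic striatal libraries lay below both pre-symptomatic ones for 7 of 7 members, against 19.6% of 13392 genes. They lay below both WT libraries for 7 of 7 against 31.7%, and below all other 4 striatal libraries for 7 of 7 against 13.5%.

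Against WT at 13 weeks, post-symptomatic R6/2 striatum had 1 of 7 members lower with all libraries, Adora2a at a log2 change of -3.17 ± 0.49 (adjusted p = 0.0449 by edgeR), against 0.619% of genes, with 6 of 7 under an unadjusted p of 0.05 and 6 called by DESeq2. The other log2 changes were -2.60 for Rasd2, -2.58 for Adcy5, -2.42 for Drd1 and Ppp1r1b, -1.73 for Gng7 and -0.60 for Gnal, and Adcy5 just missed the threshold at an adjusted p of 0.0512. The pre-symptomatic pair enters this comparison only through the estimate of spread, and without replicate 2 the values stayed and 7 of 7 were lower, against 6.18% of genes, as they were without replicate 1, against 6.06%. Leaving out either replicate of post-symptomatic striatum, post-symptomatic cortex or pre-symptomatic cortex left 0 called. With the WT ages as 1 group, 6 of 7 were lower against 5.94% of genes. The WT group at each age had 1 library, which was assumed to vary as the R6/2 libraries did. Replicates 1 and 2 of each R6/2 group differed in sex, so they were not from the same mouse. Whether striatum and cortex came from the same mice was not stated, and p-values measure only the spread between these libraries. Rn45s, a ribosomal RNA gene, took 10.5 to 15.2% of reads in R6/2 and 4.3 to 5.6% in WT, and its part in the genotype differences was not tested.

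**Figure D3:**
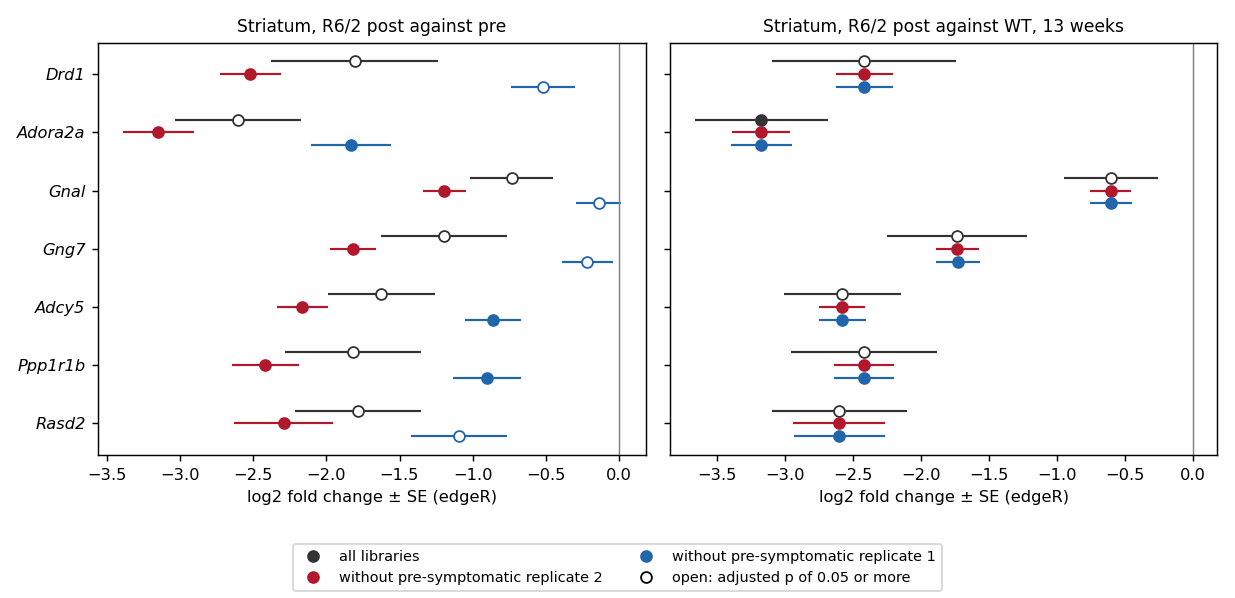
Log2 fold changes (± SE, edgeR) of the 7 readable members in striatum, post-symptomatic R6/2 against pre-symptomatic R6/2 (left) and against WT at 13 weeks (right), from all libraries, without pre-symptomatic replicate 2 and without replicate 1, where filled points have an adjusted p under 0.05. The changes across onset moved with the library left out, and those against WT kept their value while the errors shrank.

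Before onset, the comparison of R6/2 with WT striatum gave 0 of 7 members called by edgeR with all libraries, against 0.228% of genes. Of the 7, 0 had an unadjusted p under 0.05, and DESeq2 called 0. The result turned on the library left out. Without replicate 2, Gnal alone was called, higher at a log2 change of 0.85 (adjusted p = 0.0293 by edgeR), against 1.41% of genes. Without replicate 1, 5 of 7 were lower, from -1.89 for Drd1 to -1.04 for Adora2a, against 6.08% of genes. In cortex before onset 0 of 7 were called against 0% of genes, with 0 under an unadjusted p of 0.05 and 0 by DESeq2, and without striatal replicate 2 Gnal was called, higher by 0.73 (adjusted p = 0.0493 by edgeR), 1 of 7 against 0.944% of genes. Without striatal replicate 1 it was not (adjusted p = 0.052), and 0 of 7 were higher against 0.863% of genes.

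The change of R6/2 less that of WT between 8 and 13 weeks in striatum gave 0 of 7 by edgeR with all libraries against 0% of genes, with 4 of 7 under an unadjusted p of 0.05 and 2 by DESeq2. Without pre-symptomatic replicate 2, 7 of 7 were lower, against 2.20% of genes, from -3.45 for Adora2a to -1.46 for Gnal. Without replicate 1 Adora2a alone was called, at -2.14, 1 of 7 against 1.18% of genes lower. In WT, 13 against 8 weeks over both regions gave log2 changes of 0.06 for Adcy5 to 0.85 for Adora2a. Of the 7, 0 were called by edgeR against 0.0130% of genes, 0 were under an unadjusted p of 0.05 and DESeq2 called 0. The WT libraries were female at 13 weeks and male at 8 weeks. Age and sex thus cannot be told apart here, or in the WT part of the difference above.

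In cortex across onset, with all libraries, 0 of 7 members passed by edgeR against 0.591% of genes. By edgeR 3 had an unadjusted p under 0.05, as did 2061 of all 14392 genes. DESeq2 called 2, and 558 over all genes. The log2 changes were -1.95 for Rasd2, -1.73 for Ppp1r1b and -0.78 for Gnal, and those of Drd1 (0.35), Adcy5 (0.21), Adora2a (0.76) and Gng7 (-0.11) each had an unadjusted p above 0.05. Without the discordant striatal library, which changes only the spread here, Ppp1r1b, Rasd2 and Gnal fell, 3 of 7 against 5.97% of genes, and without pre-symptomatic striatal replicate 1 the count was also 3, against 6.25%. Against WT at 13 weeks 0 of 7 were called in cortex, against 0.111% of genes, with 3 under an unadjusted p of 0.05 and 3 by DESeq2. Without that library 4 were lower, Adora2a (-2.12), Rasd2 (-2.14), Ppp1r1b (-1.99) and Drd1 (-0.85), against 4.08% of genes, and without replicate 1 the count was also 4, against 4.06%. Some marker sums were also lower in post-symptomatic cortex, while the members had gone both ways across onset. Oligodendrocyte markers there summed to 2517 and 2824 CPM against 2417 and 2737 CPM before onset and 4244 and 4511 CPM in WT. Endothelial markers summed to 122.5 and 128.8 CPM against 131 and 129.4 CPM before onset. In post-symptomatic cortex pan-neuronal markers summed to 5870 and 5539 CPM against 9059 and 8831 CPM before onset and 8040 and 8086 CPM in WT at 13 and 8 weeks. Cortical excitatory neuron markers summed to 1351 and 1336 CPM against 2044 and 1991 CPM before onset and 2084 and 1999 CPM in WT, and astrocyte markers to 2830 and 3040 CPM against 5322 and 5309 CPM and 3827 and 3996 CPM. The second post-symptomatic cortical library also stood apart in choroid plexus and ependymal markers, at 3661 CPM against 227 to 287 CPM in the other 5 cortical libraries. The part of these shifts in the cortical results was not tested. The cortical change with age of R6/2 less that of WT, a comparison added after the data were seen, gave 0 of 7 by edgeR against 0% of genes with all libraries, with 2 under an unadjusted p of 0.05. Without the discordant striatal library Ppp1r1b alone was called (-2.02), 1 of 7 against 0.472% of genes lower.

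The changes in striatum and cortex were set against each other directly. With all libraries 0 of 7 differed by edgeR against 0% of genes. By edgeR 3 had an unadjusted p under 0.05, as did 519 of all 14392 genes. DESeq2 called 1, and 17 over all genes. Without pre-symptomatic replicate 2, the fall was larger in striatum, with a log2 difference of -3.93 for Adora2a, -2.90 for Drd1, -2.40 for Adcy5 and -1.73 for Gng7, 4 of 7 members against 0.546% of genes. Without replicate 1 only Adora2a (-2.59) was called, 1 of 7 against 0.645% of genes, and the values of Adcy5 (-1.08), Drd1 (-0.87) and Gng7 (-0.11) did not pass. For Ppp1r1b (-0.71), Gnal (-0.44) and Rasd2 (-0.37) the difference did not pass without replicate 2, and without replicate 1 it was above 0 for these 3 genes.

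With the regions fitted together and region as a term, 3 of 7 members fell across onset, Rasd2 (-1.86, adjusted p = 0.0116 by edgeR), Ppp1r1b (-1.78, adjusted p = 0.0169) and Gnal (-0.76, adjusted p = 0.0431), against 4.36% of genes. Rasd2 (-2.38, adjusted p = 0.00257) and Ppp1r1b (-2.21, adjusted p = 0.00462) were also lower than WT after onset, 2 of 7 against 4.04% of genes, and Adora2a came close at -2.86 with an adjusted p of 0.0558. Without pre-symptomatic striatal replicate 2 the counts were 3 across onset against 7.11% of genes and 3 against WT, Gnal being added, against 7.03%. Across onset the count was 3 without pre-symptomatic striatal replicate 1 too, against 6.83% of genes. It became 0 without post-symptomatic cortical replicate 1 and 1 without post-symptomatic cortical replicate 2, either post-symptomatic striatal library or either pre-symptomatic cortical library. Against WT it became 0 without the WT striatal library of 13 weeks and 4 without pre-symptomatic striatal replicate 1, against 4.76% of genes. Before onset 0 of 7 were called by edgeR against 1.96% of genes, and 0 by DESeq2. By edgeR 1 of 7 had an unadjusted p under 0.05, as did 2078 of all 15337 genes. Without pre-symptomatic striatal replicate 2 Gnal was called, higher by 0.76, 1 of 7 against 2.63% of genes.

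Striatal projection neuron markers were low in the same libraries as the members, and their part in the members' changes was not tested. Their summed level was 2287 and 2106 CPM in post-symptomatic striatum against 7729 and 7827 CPM in WT at 13 and 8 weeks. For 12 of 12 markers both post-symptomatic libraries lay below both WT libraries, as for 31.7% of 13392 genes. Thalamic neuron markers summed to 204 and 250 CPM against 117 and 91 CPM, and choroid plexus and ependymal markers to 334 and 354 CPM against 143 and 97 CPM. Cholinergic interneuron markers summed to 34 and 39 CPM against 149 and 101 CPM, with 3 of 3 below both WT libraries, against the same 31.7% of genes. Pan-neuronal markers summed to 3392 and 3629 CPM against 4605 and 4644 CPM, with 4 of 8 below both WT libraries and 2 above both. Astrocyte markers summed to 2314 and 2687 CPM against 3136 and 3273 CPM, with 4 of 7 below both and 1 above both. The share of all genes above both WT libraries was not counted. The part of these lists was not tested either. The striatal levels of the members were also set per 1000 CPM of the striatal marker sum, a measure chosen after the data were seen. Adora2a stood at 11.5 and 14.0 in post-symptomatic R6/2 against 32.6 and 26.3 in WT, Adcy5 at 37.7 and 33.3 against 60.5 and 59.6, and Drd1 at 110.1 and 95.1 against 156 and 155. Gng7 stood at 70.1 and 70.6 against 66.4 and 68.8, on this scale, and Gnal at 169 and 186 against 76.5 and 63.4. The marker sum itself was low in the post-symptomatic libraries, so a gene whose CPM fell by less than the sum lies above WT on this scale. The post-symptomatic libraries lay above both WT libraries for Gng7 and Gnal, whose CPM averaged 29.4% and 71.6% of WT. How many other genes do so on this scale was not counted. Ppp1r1b, at 154 and 202 against 269 and 230, lay below WT, while Rasd2, at 30.7 and 65.1 against 81.2 and 54.2, overlapped it. Pre-symptomatic replicate 2 on this scale was within 0.77 to 1.49 times replicate 1 for all 7 members.

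**Figure D4:**
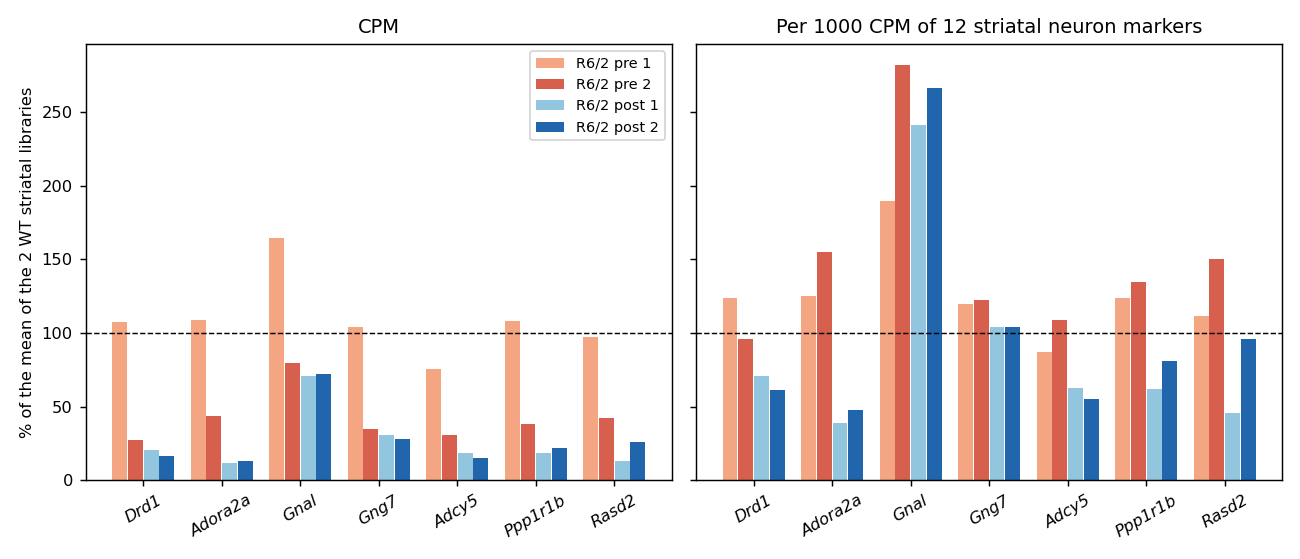
Striatal levels of the 7 readable members in the 4 R6/2 libraries as a percentage of the mean of the 2 WT striatal libraries, in CPM (left) and per 1000 CPM of the summed striatal neuron markers (right), with a dashed line at WT. On the left the 2 post-symptomatic libraries and pre-symptomatic replicate 2 sit low for most members. On the right, where the marker sum that divides each level was itself low in those libraries, Gng7 sits near WT and Gnal above it.

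The wider pathway was read from 73 further genes in 7 groups, of which 69 or 70 could be tested. Across onset in striatum 0 passed by edgeR with all libraries, against 0.160% of all genes. DESeq2 called 10, and 447 over all genes. By edgeR 16 of 69 had an unadjusted p under 0.05, as did 1872 of all 14392 genes. Without pre-symptomatic replicate 2, 22 of 70 fell, against 5.32% of all genes, and 2 rose. Without replicate 1, 10 of 70 fell, against 5.28% of all genes, and 3 rose. The group of phosphatases and phosphoproteins had 7 of 10 lower without replicate 2, with a median log2 change of -1.09 over the 10 against 0.02 over all genes. It had 4 of 10 lower without replicate 1, with a median of -0.41, and 0 of 10 with all libraries, with a median of -0.80.

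Of its genes, the phosphatase inhibitor Ppp1r1a (-2.13 without replicate 2 and -1.34 without replicate 1) and the PKA substrate Arpp19 (-2.40 and -0.97) fell in both of these fits. The calcineurin subunit Ppp3ca fell without replicate 2 (-1.67) and had -0.42 without replicate 1, which did not pass. Arpp21, a further PKA substrate of striatal neurons, likewise fell without replicate 2 (-1.98) and had -0.20 without replicate 1 (adjusted p = 0.65 by edgeR). Other receptors had a median log2 change of -1.30 over 7 genes without replicate 2 and -1.135 without replicate 1.

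For the remaining groups, median log2 changes are given without replicate 2 and then without replicate 1, against 0.02 over all genes in both fits. They were 0.10 and 0.03 for 19 G protein subunits and -0.17 and -0.37 for 8 cyclases. For 9 PKA subunits and inhibitors they were -0.08 and 0.23. For 11 cAMP effectors and small G proteins they were -0.29 and -0.16, and for 6 dopamine synthesis and clearance genes -0.08 and -0.11. The PKA inhibitor Pkib was named after its value was seen. It measured 7.72 and 14.9 CPM in post-symptomatic striatum, 1.87 and 17.4 CPM before onset, and 2.10 and 2.51 CPM in WT at 13 and 8 weeks. Its log2 change was 2.60 without replicate 2 and -0.61 without replicate 1, where it did not pass. Gnas, the general stimulatory alpha subunit, had a log2 change of 0.02 ± 0.31 with all libraries, 0.61 without replicate 2 and -0.42 without replicate 1, none of them past the threshold. Adcy1, a cyclase high in cortex, and the PKA catalytic subunit Prkacb had changes of -1.26 and 0.29 with all libraries, and of these 3 fits passed only in that without replicate 1, at -1.88 and 0.72. Against WT after onset in striatum 3 of 70 were lower with all libraries, against 0.619% of genes, Ppp1r1a (-2.64), Ppp1ca (-1.64), a catalytic subunit of protein phosphatase 1, and Rasgrp2 (-3.28), an exchange factor for Rap. Without pre-symptomatic replicate 2, 23 were lower, against 6.18% of genes, and 3 higher, and without replicate 1 the counts were also 23 and 3, against 6.06% of genes lower.

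With the regions fitted together, 7 of 69 fell across onset, against 4.36% of genes, and 1 rose, the gamma subunit Gng4 (1.11). Among those that fell were Arpp19 (-1.96), Ppp1r1a (-1.42), Ppp3ca (-1.08), Adora1 (-0.87), Ppp1r9b (-0.79) and Ppp3r1 (-0.68). Without pre-symptomatic striatal replicate 2, 13 of 70 fell, against 7.11% of genes, and without replicate 1, 9 fell, against 6.83%. Against WT after onset 10 of 70 were lower, against 4.04% of genes, and 0 higher. Without replicate 2, 14 were lower, against 7.03% of genes, and without replicate 1, 12 were lower, against 4.76%. Before onset 0 of 70 were called by edgeR, against 1.96% of genes, and 2 by DESeq2, which called 662 over all genes. By edgeR 11 of 70 had an unadjusted p under 0.05, as did 2078 of all 15337 genes.

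Among the genes whose CPM over the 12 libraries was most like the mean profile of the readable members were Penk (Pearson r 0.991), Necab2 (0.989) and Asic4 (0.982), with 10772 genes compared. These points share libraries and the large difference between regions, so the values are descriptions. Penk, which encodes proenkephalin and is in the striatal marker list, averaged 227 CPM in post-symptomatic striatum against 2129 CPM in WT striatum. Over the same 12 libraries the 21 pairs of readable members had r from 0.885 to 0.986, with a median of 0.945.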

How the data were processed

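RNA of striatum and cortex was measured by QuantSeq 3′ mRNA sequencing (Lexogen). The authors deposited raw read counts per gene for each of the 12 libraries, and the submitters' processing notes name Bowtie2, bedtools and mm10. Versions, the counting rule, its use of strand and the annotation were not given in the sources used here.

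From the deposited counts, CPM was computed with TMM-scaled library sizes over the 12 libraries. A gene was called readable where its median count over the 6 libraries of a region was at least 10. Tests were fitted over all genes that passed edgeR's filter on low counts (minimum count 10), with edgeR 4.0.16 (quasi-likelihood test) in R 4.3.3 and Benjamini-Hochberg adjustment over all genes tested, and a gene was called at an adjusted p under 0.05. R6/2 stages were compared over the 8 R6/2 libraries, and genotypes and WT regions over all 12. DESeq2 1.42.0, other scalings and filters, a threshold of 0.01, a replicate block and each library left out were alternatives. Fitting the WT ages as 1 group, the scale per striatal marker sum and the cortical change with age of R6/2 less WT were added after the data were seen. The procedure was tested on simulated data. The members and the pathway and marker lists were chosen with earlier results of these data known.

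Members were all named, and pathway genes were named where they were among the 12 with the smallest adjusted p among those called in a comparison, or were Gnas, Adcy1, Prkacb, Arpp21 or Drd5, and 1 gene that the rule names is not reported here. Likeness of profiles was Pearson's r of log2(CPM + 0.5) among genes of mean CPM of at least 5. Same-numbered libraries of different groups did not deviate together throughout (correlations of 0.00487 to 0.172), so numbers were not taken as pairs. Positions are from GENCODE M21 on GRCm38.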

Additional observations from a re-analysis of the deposited data

Results flagged for a closer look

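In cortex, the difference between R6/2 and WT had a different sign at 13 than at 8 weeks for 4 members, by the log2 ratio of mean CPM in the libraries of each age. For Gnal it was -0.36 at 13 weeks and 0.73 at 8 weeks, a difference of -1.09. For Gng7 it was -0.34 and 0.31, a difference of -0.65. For Ppp1r1b it was -1.99 and 0.03, a difference of -2.02, and for Rasd2 it was -2.14 and 0.22, a difference of -2.36. The test of the cortical change with age in R6/2 less WT called 0 of the 7 readable members with all libraries by edgeR, against 0% of genes, with 2 of them under an unadjusted p of 0.05. Without the second pre-symptomatic striatal library it called Ppp1r1b at an adjusted p of 0.0278, 1 of 7 against 0.472% of genes lower. The WT level of each age rests on 1 library, which was female at 13 weeks and male at 8 weeks.

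For Adcy5, the change with onset in R6/2 had opposite signs in the regions, at -1.67 in striatum and 0.22 in cortex, a difference of -1.89. The test of that difference gave -1.84 with an adjusted p of 0.9999 by edgeR over all libraries. Without the second pre-symptomatic striatal library the difference was -2.40, and without the first it was -1.08. By edgeR over all libraries, the changes in striatum and cortex also had opposite signs for Adora2a (-2.60 and 0.76) and Drd1 (-1.81 and 0.35).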

How the results depend on the processing

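Of 1574 values of the members' log2 changes under the alternatives, over all comparisons but the cortical change with age added later, 1362 kept their direction and side of the threshold, 97 came to pass it, 73 ceased to pass it and 42 changed sign. In each sign change neither the reported value nor the changed value was called. With 1 library left out in turn, log2 changes of R6/2 against WT striatum before onset ran from -1.89 to 0.10 for Drd1, -1.04 to 0.27 for Adora2a, -0.19 to 0.85 for Gnal, -1.57 to 0.0244 for Gng7, -1.29 to 0.22 for Ppp1r1b and -0.92 to 0.27 for Rasd2. Over both regions before onset they ran from -1.14 to 0.30 for Adora2a, -0.74 to 0.53 for Gng7, -1.18 to 0.16 for Adcy5, -0.48 to 0.0758 for Ppp1r1b and -0.20 to 0.22 for Rasd2, which was -0.15 with library size alone and -0.0009 with no filter. In WT with age they ran from -0.18 to 0.44 for Drd1, -0.35 to 0.92 for Gng7 and -0.62 to 0.89 for Adcy5. The difference between regions ran from -0.44 to 0.64 for Gnal, -0.71 to 0.83 for Ppp1r1b and -0.40 to 0.85 for Rasd2, and for Gnal it was -0.0040 with upper-quartile normalization and -0.0403 with library size alone. Across onset in cortex Gng7 ran from -0.25 to 0.0223 and was 0.14 with library size alone. Against WT cortex, Adcy5 was 0.0788 after and 0.0448 before onset with a replicate block, and before onset Ppp1r1b was -0.0944 with library size alone and -0.12 with the WT ages as 1 group, where Rasd2 was -0.0039. DESeq2 moved the count of 7 readable members called from 0 to 5 across onset in striatum, 0 to 2 in cortex, 0 to 1 for the difference between regions and 0 to 2 for the striatal change with age less that of WT. It also gave 6 in place of 1 against WT after onset in striatum and 3 in place of 0 in cortex, where the WT ages as 1 group gave 6 and 2. In that striatal comparison, upper-quartile normalization, no filter and a threshold of 0.01 each gave 0. Striatum against cortex in R6/2 gave 4 before onset and 0 after it at a threshold of 0.01, and 2 after onset with no filter, and both regions across onset gave 0 at 0.01. With 1 library left out in turn, the count ran from 0 to 7 across onset in striatum, 0 to 3 in cortex, 0 to 4 for the difference between regions, 1 to 7 for striatum against cortex before onset and 0 to 7 after it. It ran from 0 to 3 across onset over both regions, 0 to 4 against WT after and 0 to 1 before it. Against WT it ran from 0 to 7 after onset and 0 to 5 before it in striatum, 0 to 4 and 0 to 1 in cortex, and from 0 to 7 for the striatal change with age less that of WT. Where 1 library was left in a group it was assumed to vary like the others. A replicate block changed no call count: across onset in striatum it gave 0, over both regions 3 and against WT over both regions 2. The block was the replicate number, which went with sex in R6/2. Every WT library had number 1, though WT was female at 13 weeks. The block thus checked neither sex nor pairing of regions in the comparisons with WT. Calls over all genes shifted too, from 23 by edgeR to 447 by DESeq2 across onset in striatum and from 85 to 558 in cortex. The causes of these shifts were not tested. Read counts were too low to compare Drd2 and Gpr6 in any library and gave wide errors for Adora2a in cortex, and why Drd2 had few reads was not tested.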
